A study of Rattus norvegicus with 24 samples.

Results

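Gene expression in rat neural cells differentiated with vitamin C was compared with that in cells differentiated without it. Both groups carry the label of differentiated neural stem cells on a Sprague-Dawley background, one of them with vitamin C, and the labels name no other agent or genotype for either. Each group has 2 RNA-seq libraries, so the comparison uses 4 of the 24 samples of the series. In both groups the first replicate is labelled D4 and the second D5. The labels give no age of the animals and no dose of vitamin C, nor do they state that replicates came from different cultures or animals. The p-values therefore reflect only how these samples varied, which may be technical. The members are all genes with at least 1 CPM (the authors’ read counts scaled to a common library total) in at least 2 of the 4 libraries, 11681 of the 12187 genes listed. Differences are log2(CPM + 0.5) with vitamin C minus without it, taken inside each replicate number, which understates the change of genes with few reads. Pair 1 is replicate 1 and pair 2 replicate 2. Values are given for replicate 1 first, and those of the undifferentiated stem cells (label D0) are added where they help to place a level.

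Vitamin C (ascorbate) keeps the iron of a family of dioxygenases in its active, reduced state. The family includes the prolyl hydroxylases that mark the alpha subunits of hypoxia-inducible factors (HIF) for degradation, the hydroxylases that mature collagen, the TET enzymes that oxidise 5-methylcytosine and the JmjC histone demethylases. Neural stem cells give rise to neurons, astrocytes and oligodendrocytes, and the series was set up to ask how vitamin C acts on DNA methylation, hydroxymethylation and enhancers during that differentiation.

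The replicate sets differed widely, which is why each pair is given on its own. Recovered reads were 5372983 without and 6641721 with vitamin C in replicate 1, and 11210514 and 13184601 in replicate 2, so the library with vitamin C was the deeper one of each pair. All 21 microglia and macrophage genes tested were higher in replicate 2, with summed levels of 7.91 (no vitamin C) and 6.99 CPM (vitamin C) in replicate 1 against 1965 and 1517 CPM in replicate 2. Without vitamin C 4 of them were at 0 in replicate 1, and with it 9. Fibroblast and meningeal genes did the same, 19 of 19, with sums of 418 (no vitamin C) and 312 CPM (vitamin C) in replicate 1 against 7899 and 5277 CPM in replicate 2. Myelin and mature oligodendrocyte genes went the other way and summed to 11932 (no vitamin C) and 10522 CPM (vitamin C) in replicate 1 against 997 and 996 CPM in replicate 2. Astrocyte markers summed to 8152 (no vitamin C) and 14559 CPM (vitamin C) in replicate 1 against 16281 and 24315 CPM in replicate 2, and pan-neuronal genes to 1214 (no vitamin C) and 1053 CPM (vitamin C) in replicate 1 against 1002 and 1056 CPM in replicate 2. In stem cells the same 2 lists summed to 8344 and 15464 CPM and to 761 and 984 CPM. RNA of astrocyte, oligodendrocyte and neuronal genes was thus present in every differentiated library. In bulk RNA, more cells of a type and more RNA per cell cannot be told apart.

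Few genes passed the test across the genome, and most of those were higher with vitamin C. The paired limma fit called 9 of 11681 genes at a Benjamini-Hochberg adjusted p under 0.05 (0.0770%), 8 higher and 1 lower, and 1244 had an unadjusted p under 0.05. Paired fits on the recovered reads called more. The edgeR quasi-likelihood test called 15 genes (0.128%), 12 higher and 3 lower, and DESeq2 called 79 higher (0.676%) and 28 lower (0.240%). All 9 limma calls were also called by both count tests. In size, 354 genes were at least 1.5-fold higher in both pairs (3.03%) and 146 at least 1.5-fold lower in both (1.25%), while 132 passed 1.5-fold in opposite directions in the 2 pairs. After quantile normalization, which forces all libraries to the same distribution, those counts were 298 higher and 207 lower. Without regard to size, 30.0% of genes were higher and 26.4% lower in both pairs, and the median difference was 0.02 (0.00 for pair 1, 0.02 for pair 2). A pair at a time, 1257 genes passed 1.5-fold upward and 1003 downward in replicate 1, against 1006 and 419 in replicate 2. Across genes, which are not independent replicates and share library and depth, the differences of the 2 pairs correlated at r = 0.290. The smallest p that an exact permutation test of 2 against 2 allows is 0.33, and an exact sign-flip test over 2 pairs allows 0.5, so neither was used.

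The limma calls rest on the pairing and on the choice of libraries. Without the replicate block 0 genes were called in limma (55 at an unadjusted p under 0.05), 0 in edgeR (51 unadjusted) and 8 in DESeq2. With the stem cell libraries in the same fit, the block called 0 (398 unadjusted). A fit on 2 pairs favours genes that differ alike in both, and 107 of 107 DESeq2 calls had the same direction in both pairs. The call of a gene below is therefore given with the name of its test, and values in every library come first.

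**Figure D1:**
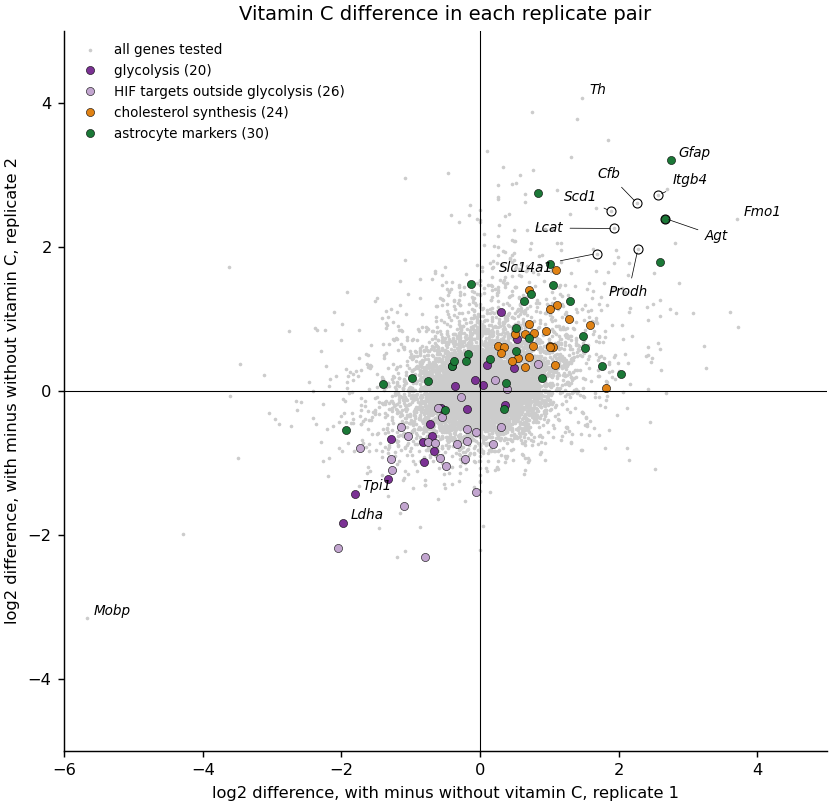
Each point is a gene, placed by its log2 difference (log2 of CPM + 0.5, with minus without vitamin C) in replicate 1 on the horizontal axis and in replicate 2 on the vertical axis. Grey points are all 11681 genes tested and coloured points the members of 4 lists, with counts in the key. Cholesterol synthesis members lie above and to the right of 0 in both pairs, most glycolysis and HIF target members below and to the left, and the genes with a name are those called by limma together with Fmo1, Mobp, Th and Tpi1.

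The 8 genes called higher include markers and enzymes of astrocytes. Gfap, the intermediate filament protein of astrocytes, rose from 101 to 684 CPM in replicate 1 and from 224 to 2072 CPM in replicate 2, a log2 difference of 2.98 (SE 0.22) and an adjusted p of 0.0267 (limma). Its stem cell levels were 1.77 and 57.9 CPM. Agt, angiotensinogen, which astrocytes secrete in the brain, rose from 50.5 to 324 CPM in replicate 1 and from 13.5 to 73.5 CPM in replicate 2, by 2.53 (SE 0.15), with a limma adjusted p of 0.0206, the smallest of all genes tested. For both genes each library with vitamin C stood above both libraries without it, with the narrowest gap in Agt. How many of all genes tested separated in this way was not counted, here or for the genes below. The genes were picked for their differences, so such separation describes their values and adds no support.

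Most of the other 6 genes called higher were found in different absolute amounts in the 2 replicates. Cfb, complement factor B, rose from 1.40 to 8.61 CPM in replicate 1 and from 70.7 to 434 CPM in replicate 2, by 2.44 (SE 0.18), adjusted p 0.0267. That is a similar fold on a level far higher in replicate 2, the replicate with microglial and fibroblast RNA. Lcat, which esterifies cholesterol on lipoproteins, rose from 8.60 to 34.2 CPM in replicate 1 and from 27.8 to 135 CPM in replicate 2 (log2 difference 2.09, SE 0.17, adjusted p 0.0267). Prodh, the proline dehydrogenase of mitochondria, rose from 9.42 to 47.6 CPM in replicate 1 and from 17.8 to 71.1 CPM in replicate 2 (log2 difference 2.12, SE 0.17, adjusted p 0.0267). Both had lower levels in replicate 1 in each group. Scd1, the stearoyl-CoA desaturase that makes monounsaturated fatty acids, rose from 18.6 to 70.0 CPM in replicate 1 and from 28.3 to 162 CPM in replicate 2 (log2 difference 2.19, SE 0.19, adjusted p 0.0285), and in stem cells it stood at 108 and 103 CPM. Itgb4, the laminin-binding integrin beta 4, rose from 1.63 to 12.2 CPM in replicate 1 and from 8.33 to 57.8 CPM in replicate 2 (log2 difference 2.65, SE 0.23, adjusted p 0.0285). Slc14a1, a urea transporter, rose from 15.9 to 52.2 CPM in replicate 1 and from 14.5 to 55.7 CPM in replicate 2 (log2 difference 1.80, SE 0.17, adjusted p 0.0380) and was the called gene whose 2 replicates lay closest together. All adjusted p-values of these 6 genes are from the paired limma fit.

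The single gene called lower was Ldha, lactate dehydrogenase A, which reduces pyruvate to lactate. It fell from 316 to 80.2 CPM in replicate 1 and from 437 to 122 CPM in replicate 2, a log2 difference of -1.90 (SE 0.16), limma adjusted p 0.0267, and stood at 235 and 297 CPM in stem cells. The levels with vitamin C did not overlap those without it, nor those of stem cells. Just above the threshold were Entpd2, an ectonucleotidase, from 8.02 to 30.0 CPM in replicate 1 and from 20.3 to 64.8 CPM in replicate 2 (limma adjusted p 0.0538, edgeR adjusted p 0.0467), and a group with a limma adjusted p of 0.0558 that held Ampd3, Tpi1, Col5a3, Fmo1, Tnr, C1s, Igsf1 and Neu4. Of these Fmo1, a flavin monooxygenase, had the largest difference, 3.05 (SE 0.34), going from 4.53 to 65.1 CPM in replicate 1 and from 4.30 to 24.6 CPM in replicate 2.

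**Figure D2:**
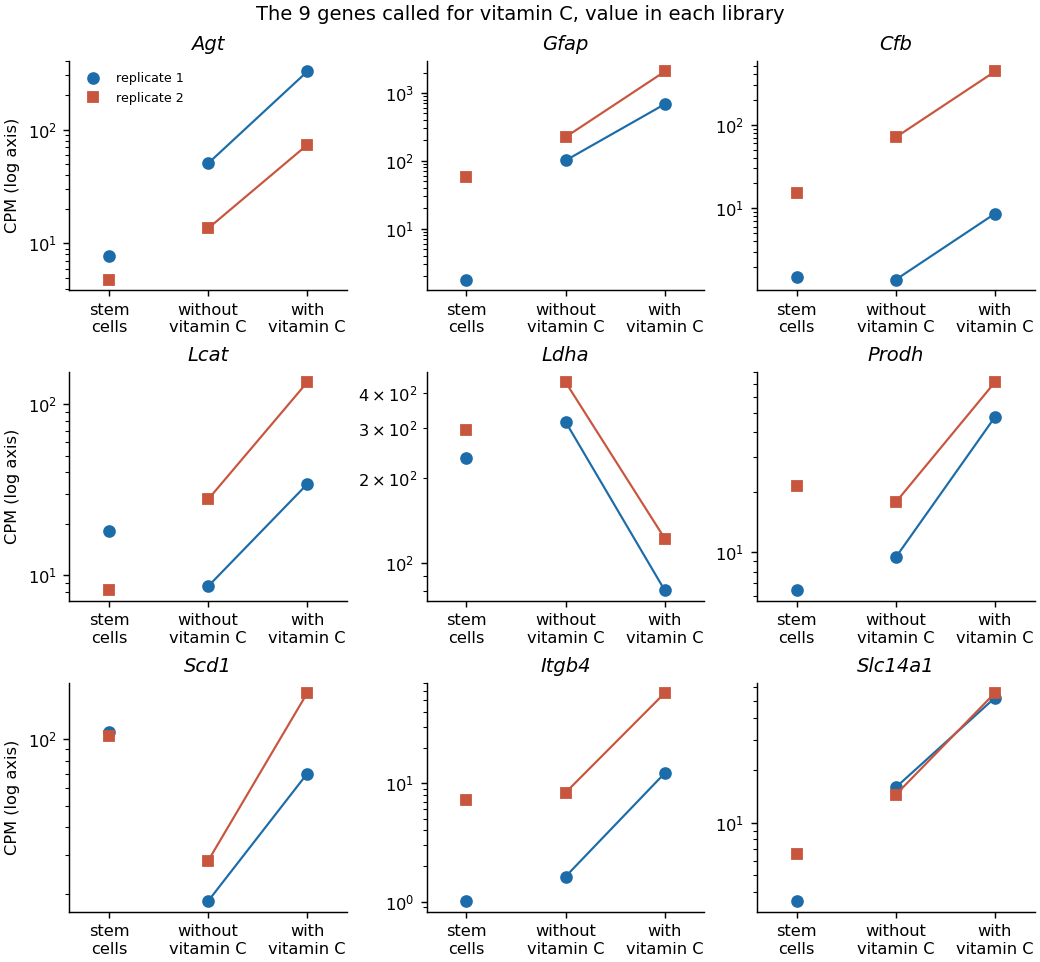
CPM on a log axis in each library for the 9 genes called by the paired limma fit. Circles are replicate 1 and squares replicate 2, lines join the libraries without and with vitamin C of a pair, and stem cell libraries stand unjoined at the left. Both lines slope up for 8 genes and down for Ldha, while the level of Cfb differs more between replicates than between groups.

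Glycolytic enzymes were lower with vitamin C for the most part. Of 20 glycolytic genes tested, 8 were at least 1.5-fold lower in both pairs (background 1.25%) and 0 higher (3.03%). DESeq2 called 7 lower (0.240%), and limma called Ldha (0.0770%). The list median was -0.31 (-0.49 for pair 1, -0.24 for pair 2), and -0.53 when the second library lacking vitamin C was left out of the fit with the stem cell libraries, which serves below wherever a single library is left out. Tpi1, triosephosphate isomerase, went from 308 to 88.0 CPM in replicate 1 and from 340.05 to 126 CPM in replicate 2 (log2 difference -1.62, SE 0.17, limma adjusted p 0.0558, DESeq2 adjusted p 1.03e-09). Pfkl, the liver-type phosphofructokinase, went from 174 to 68.6 CPM in replicate 1 and from 393 to 168 CPM in replicate 2 (log2 difference -1.28, SE 0.15, DESeq2 adjusted p 1.24e-07). Eno1, the enolase, and Pkm, the pyruvate kinase, were also called by DESeq2. Eno1 went from 501 to 285 CPM in replicate 1 and from 618 to 311 CPM in replicate 2, and Pkm from 315 to 178 CPM in replicate 1 and from 377 to 229.9 CPM in replicate 2. Aldoa (aldolase A) and Pgk1 (phosphoglycerate kinase) completed the DESeq2 calls, at -0.97 (SE 0.23) and -0.75 (SE 0.16). In direction alone, 11 of 20 were lower in both pairs (26.4%) and 5 higher (30.0%), the latter including the glucose transporter Slc2a1, from 38.0 to 53.5 CPM in replicate 1 and from 146 to 182 CPM in replicate 2, the platelet-type phosphofructokinase Pfkp, from 39.9 to 58.2 CPM in replicate 1 and from 35.4 to 58.5 CPM in replicate 2, and the lactate transporter Slc16a1, from 33.6 to 41.5 CPM in replicate 1 and from 68.0 to 146 CPM in replicate 2. These 3 were chosen after their values were seen, and none was called by limma, edgeR or DESeq2.

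Targets of HIF outside glycolysis were also lower for the most part. Of 26 tested, 21 were lower in both pairs (background 26.4%) and 3 higher (30.0%), and 9 were at least 1.5-fold lower in both (1.25%). The list median was -0.63 (-0.52 for pair 1, -0.71 for pair 2), and -0.37 when the second library lacking vitamin C was left out. DESeq2 called 2 of them lower (0.240%), Vegfa and P4ha1, and limma called 0 (0.0770%). Vegfa, the vascular growth factor, went from 165 to 76.7 CPM in replicate 1 and from 591 to 196 CPM in replicate 2 (log2 difference -1.35, SE 0.18, DESeq2 adjusted p 2.09e-06). P4ha1, a subunit of the collagen prolyl hydroxylase, went from 67.3 to 38.5 CPM in replicate 1 and from 199.6 to 40.0 CPM in replicate 2 (log2 difference -1.55, SE 0.33, DESeq2 adjusted p 0.00996), with most of the difference in replicate 2. Ankrd37, an ankyrin repeat gene known as a HIF target, had the largest difference, -2.12 (SE 0.30), going from 3.14 to 0.383 CPM in replicate 1 and from 8.81 to 1.55 CPM in replicate 2. Its 4 reads in the library with vitamin C of replicate 1 leave that ratio imprecise. Egln3, a HIF prolyl hydroxylase that is itself induced by HIF, went from 10.2 to 3.92 CPM in replicate 1 and from 38.6 to 19.8 CPM in replicate 2. Tfrc, the transferrin receptor, went from 116 to 56.3 CPM in replicate 1 and from 86.7 to 55.8 CPM in replicate 2, but in the fit of 6 libraries without the first library lacking vitamin C its difference was 0.000502. The mitophagy receptors Bnip3 and Bnip3l had differences of -0.73 (SE 0.16) and -0.68 (SE 0.14). Angptl4, 1 of the 3 members higher in both pairs and among the 4 most abundant, went the other way. It rose from 88.7 to 158 CPM in replicate 1 and from 119 to 156 CPM in replicate 2. Its log2 difference was 0.61 (SE 0.17), without a call by limma, edgeR or DESeq2. Narf, which was in no list and was called by DESeq2 (adjusted p 0.000511), went from 63.7 to 27.4 CPM in replicate 1 and from 68.8 to 13.5 CPM in replicate 2. The HIF subunits themselves differed little or unevenly. Hif1a stood at 122 and 86.0 CPM in the libraries lacking vitamin C, against 119 and 83.7 CPM in those given it, and Epas1, which encodes HIF-2 alpha, at 95.5 and 66.4 against 86.3 and 119.96 CPM.

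**Figure D3:**
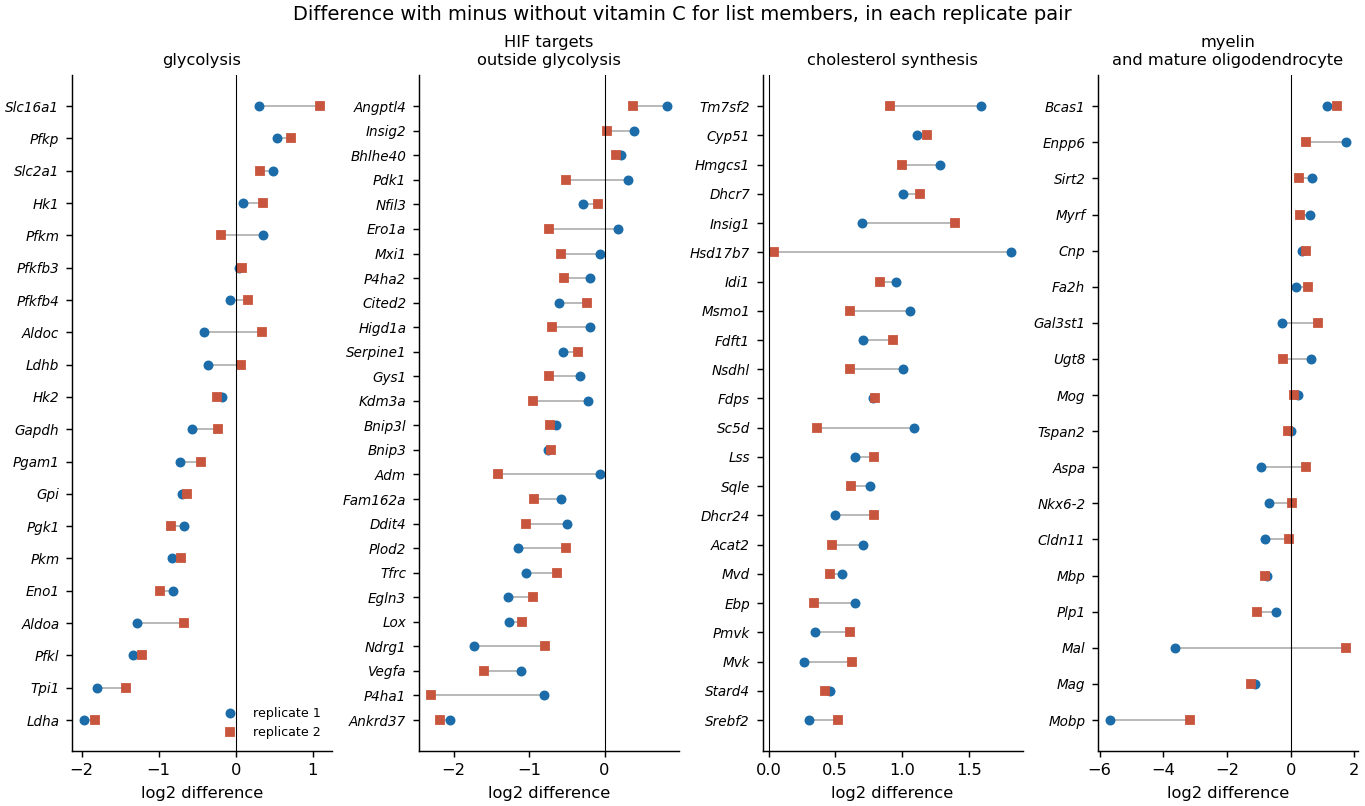
The log2 difference (log2 of CPM + 0.5, with minus without vitamin C) of tested members of 4 lists, one row per gene, leaving out those not reported here, with a circle for replicate 1 and a square for replicate 2. The 22 cholesterol synthesis members drawn lie to the right of 0 in both pairs, glycolysis and HIF targets lie mostly to the left, and the myelin list runs from Bcas1 on the right to Mobp on the left.

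Promoter letters are shown for Ldha and Ankrd37, the glycolytic and the other HIF target gene with the largest differences, and for Hmgcs1 and Idi1, 2 cholesterol synthesis genes with a window in the table. The sequences are from RefSeq (GRCr8) and cover the 250 bases before the gene's start, read 5′ to 3′ on the gene's strand. Capitals in the first pair mark ACGTG or GCGTG, the core letters of a hypoxia response element, on either strand; ACGTG on both strands overlaps in CACGTG, which is also the letters of an E-box. Capitals in the second pair mark CCAAT on either strand, the letters of the NF-Y site that often neighbours a sterol response element.
Ldha (chr1:106507842-106508091, plus strand): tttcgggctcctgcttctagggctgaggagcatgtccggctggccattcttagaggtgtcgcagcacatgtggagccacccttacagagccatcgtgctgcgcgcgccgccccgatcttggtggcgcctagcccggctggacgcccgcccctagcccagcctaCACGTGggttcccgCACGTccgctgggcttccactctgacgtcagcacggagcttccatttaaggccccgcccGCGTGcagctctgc
Ankrd37 (chr16:53001257-53001506, plus strand): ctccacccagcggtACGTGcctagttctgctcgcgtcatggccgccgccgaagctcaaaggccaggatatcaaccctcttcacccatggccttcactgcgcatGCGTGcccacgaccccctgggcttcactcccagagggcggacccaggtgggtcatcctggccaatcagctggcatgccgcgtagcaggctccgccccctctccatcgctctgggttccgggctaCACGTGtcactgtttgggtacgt
Hmgcs1 (chr2:53382054-53382303, plus strand): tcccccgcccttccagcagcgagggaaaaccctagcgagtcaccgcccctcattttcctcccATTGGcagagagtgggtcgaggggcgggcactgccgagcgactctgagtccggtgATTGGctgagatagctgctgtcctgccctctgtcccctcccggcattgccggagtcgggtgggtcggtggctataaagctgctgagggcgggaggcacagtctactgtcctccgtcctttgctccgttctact
Idi1 (chr17:66547525-66547774, minus strand): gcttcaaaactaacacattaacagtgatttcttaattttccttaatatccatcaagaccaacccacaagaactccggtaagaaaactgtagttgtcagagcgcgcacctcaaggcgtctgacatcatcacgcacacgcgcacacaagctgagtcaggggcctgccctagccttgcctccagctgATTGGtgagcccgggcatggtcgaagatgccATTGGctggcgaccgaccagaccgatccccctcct

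The hypoxia letters were common in all promoters, so their presence describes these windows and no more. ACGTG or GCGTG occurred in 14 of 19 glycolytic genes with a window (73.7%) and in 17 of 21 HIF targets (81.0%), against 56.0% of the 9419 tested genes with a window and 37.8% of all 27457 promoters in the table. The CCAAT letters occurred in 11 of 15 fatty acid synthesis genes (73.3%), against 35.2% of tested genes and 34.2% of all promoters. For cholesterol synthesis 14 of 17 windows held them, but 17 of 24 members (70.8%) had a window. For fatty acid synthesis 15 of 17 members (88.2%) had one. The cholesterol share was not read because more of its members lacked a window.

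Genes of sterol and fatty acid synthesis were higher with vitamin C as a group. The pathway builds cholesterol from acetyl-CoA and, in most cells, is switched on by SREBP-2 when sterols run low, while SREBP-1 drives the fatty acid genes. All 24 cholesterol genes tested were higher in both pairs (background 30.0%), with a median of 0.80 (0.77 for pair 1, 0.63 for pair 2). At least 1.5-fold higher in both were 14 (3.03%). DESeq2 called 6 higher (0.676%) and limma 0 (0.0770%), so no single step passed the main test. Hmgcs1, the HMG-CoA synthase, went from 296 to 719.5 CPM in replicate 1 and from 95.4 to 192 CPM in replicate 2 (log2 difference 1.14, SE 0.17, DESeq2 adjusted p 1.16e-05). Cyp51, the lanosterol demethylase, went from 138 to 299.97 CPM in replicate 1 and from 48.8 to 112 CPM in replicate 2 (log2 difference 1.15, SE 0.14, DESeq2 adjusted p 1.33e-05). Dhcr7, the last enzyme of the pathway, and Insig1, which holds SREBP in the endoplasmic reticulum, were also called by DESeq2, at 1.07 (SE 0.14) and 1.05 (SE 0.20). Idi1, the isomerase whose promoter is printed above, went from 38.0 to 74.2 CPM in replicate 1 and from 12.8 to 23.3 CPM in replicate 2 and was not called. The list summed to 1807 (no vitamin C) and 3333 CPM (vitamin C) in replicate 1 against 728 and 1269.8 CPM in replicate 2, and in stem cells to 2469.5 and 1832 CPM. The levels with vitamin C were above the stem cell level in replicate 1 and below it in replicate 2.

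Fatty acid synthesis showed the same direction, 17 of 17 members higher in both pairs (30.0%), with a smaller median of 0.53 (0.49 for pair 1, 0.54 for pair 2). At least 1.5-fold higher in both were 3 (3.03%), and DESeq2 called 4 of 17 (0.676%), namely Scd1, Scd2, Srebf1 and Fads2. Scd2, the brain desaturase and the most abundant member, went from 2979 to 5962 CPM in replicate 1 and from 2782 to 4045 CPM in replicate 2 (log2 difference 0.77, SE 0.63, DESeq2 adjusted p 0.0365), and Fads2, a polyunsaturated fatty acid desaturase, from 179 to 423 CPM in replicate 1 and from 101 to 171 CPM in replicate 2 (log2 difference 1.00, SE 0.18, DESeq2 adjusted p 0.00374). Srebf1, which encodes SREBP-1, went from 142 to 275 CPM in replicate 1 and from 432 to 659.97 CPM in replicate 2. Fasn, the fatty acid synthase, stood at 496 and 457 CPM in the libraries lacking vitamin C, against 725 and 582 CPM in those given it and was not called. Dbi, the acyl-CoA binding protein, was in no list. It was called by DESeq2 (adjusted p 0.000396) and went from 517 to 911 CPM in replicate 1 and from 252 to 569 CPM in replicate 2.

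Astrocyte markers were higher for the most part. Of 30 tested, 19 were higher in both pairs (30.0%) and 2 lower (26.4%), with a median of 0.69 (0.58 for pair 1, 0.53 for pair 2), and 0.31 when the first library given vitamin C was left out. At least 1.5-fold higher in both were 12 (3.03%). Limma called Gfap and Agt (0.0770%), and DESeq2 8 higher (0.676%) and 1 lower (0.240%). Aqp4, the water channel of astrocyte end-feet, went from 385 to 2322 CPM in replicate 1 and from 687 to 2392 CPM in replicate 2 (log2 difference 2.19, SE 0.35, DESeq2 adjusted p 7.40e-14). S100b, a calcium-binding protein of astrocytes, went from 165 to 406 CPM in replicate 1 and from 334 to 792 CPM in replicate 2 (log2 difference 1.27, SE 0.19, DESeq2 adjusted p 1.14e-08), and Aldh1l1, a folate enzyme used as a pan-astrocyte marker, from 19.9 to 40.5 CPM in replicate 1 and from 35.5 to 122 CPM in replicate 2 (log2 difference 1.39, SE 0.21, DESeq2 adjusted p 0.00153). For these 3 genes, all DESeq2 calls, every library with vitamin C was above both libraries without it. Clu, Sparcl1 and Gpr37l1 were the other DESeq2 calls upward. Cst3, cystatin C, a protease inhibitor found in astrocytes and microglia, was the call downward, from 1237 to 324 CPM in replicate 1 and from 713 to 488 CPM in replicate 2 (log2 difference -1.24, SE 0.36, DESeq2 adjusted p 0.0315). Glul, glutamine synthetase, stood at 305 and 488 CPM in the libraries lacking vitamin C, against 215 and 405 CPM in those given it, the other member lower in both pairs, and was chosen after its values were seen.

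Several genes outside the marker list followed the same direction. Tnc, the matrix protein tenascin C, went from 70.3 to 322 CPM in replicate 1 and from 249.6 to 425 CPM in replicate 2 (log2 difference 1.48, SE 0.33, DESeq2 adjusted p 0.00677). Itga6, the integrin alpha 6 that pairs with Itgb4, went from 48.7 to 116 CPM in replicate 1 and from 53.5 to 113 CPM in replicate 2 (log2 difference 1.16, SE 0.14, DESeq2 adjusted p 0.000303), and Vcam1, a cell adhesion molecule, from 29.9 to 88.8 CPM in replicate 1 and from 100.04 to 217 CPM in replicate 2 (log2 difference 1.34, SE 0.16, DESeq2 adjusted p 3.44e-05). Of 10 integrins tested, Itga6 and Itgb4 were the 2 at least 1.5-fold higher in both pairs (3.03%), and 1 was lower by that much (1.25%). The integrin list median was 0.18 (0.20 for pair 1, 0.18 for pair 2). The complement proteases C1s and C1r resembled Cfb, with C1s from 2.56 to 12.2 CPM in replicate 1 and from 193 to 522 CPM in replicate 2 and C1r from 2.44 to 6.98 CPM in replicate 1 and from 243 to 446 CPM in replicate 2. Most reads of these 2 came from replicate 2. Microglial genes, which also include complement components, summed lower with vitamin C in each pair, as given above, and their part in these values was not tested. Ogdh, a subunit of the 2-oxoglutarate dehydrogenase, was the one TCA cycle gene called by DESeq2 (adjusted p 0.000125), from 84.9 to 171 CPM in replicate 1 and from 85.2 to 193 CPM in replicate 2. The list of 20 TCA cycle genes as a whole had a median of 0.01 (-0.11 for pair 1, 0.12 for pair 2).

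Oligodendrocyte genes split between higher and lower, and this is hidden in the list medians. Of 19 myelin and mature oligodendrocyte genes, 4 were at least 1.5-fold lower in both pairs (1.25%) and 1 higher (3.03%), and DESeq2 called 4 lower (0.240%) and 1 higher (0.676%). In direction alone, 7 of 19 were higher in both pairs (30.0%) and 6 lower (26.4%). The members named in this paragraph are lower ones, and Bcas1, the 1 called higher, is given with the precursor genes below. The list median was -0.03 (-0.27 for pair 1, 0.10 for pair 2). Mobp, a late structural protein of compact myelin, went from 167 to 2.77 CPM in replicate 1 and from 3.98 to 0 CPM in replicate 2 (log2 difference -4.42, SE 0.57, edgeR adjusted p 0.0230, DESeq2 adjusted p 0.00119). The last of these values is a library with no read, in which 3 reads would have been 0.140 CPM. Mag, the myelin-associated glycoprotein, went from 621 to 286 CPM in replicate 1 and from 38.7 to 16.1 CPM in replicate 2 (log2 difference -1.18, SE 0.14, DESeq2 adjusted p 2.45e-06), and Mbp, myelin basic protein, from 5346 to 3212 CPM in replicate 1 and from 221 to 127 CPM in replicate 2 (log2 difference -0.76, SE 0.27, DESeq2 adjusted p 0.00286). Tmem125, which was in no list, showed the same pattern as Mobp, from 41.2 to 1.63 CPM in replicate 1 and from 1.67 to 0.0468 CPM in replicate 2 (edgeR adjusted p 0.0230, DESeq2 adjusted p 1.90e-09).

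Genes of oligodendrocyte precursors differed in both directions. Of 14 tested, 6 were higher (30.0%) and 4 lower (26.4%) in both pairs, 4 were at least 1.5-fold higher in both (3.03%) and 1 lower (1.25%), and DESeq2 called 4 higher (0.676%) and 1 lower (0.240%). The list median was 0.20 (0.02 for pair 1, 0.33 for pair 2) and changed sign with a library left out, to -0.42 without the second library lacking vitamin C. The summed level was lower with vitamin C in each pair, 4232 (no vitamin C) and 3558 CPM (vitamin C) in replicate 1 against 956 and 783 CPM in replicate 2. Among the most abundant members, Pdgfra, a PDGF receptor used as a precursor marker, went from 539 to 498 CPM in replicate 1 and from 381 to 257 CPM in replicate 2. Olig2, a transcription factor of the lineage, went from 765 to 485 CPM in replicate 1 and from 61.6 to 55.8 CPM in replicate 2. Neither of them was called by limma, edgeR or DESeq2. Pdgfra was a large part of the replicate 2 sums, and the part of fibroblast RNA in its values was not tested. Sox10, the transcription factor of the whole lineage, went from 227 to 513 CPM in replicate 1 and from 18.2 to 42.7 CPM in replicate 2 (log2 difference 1.19, SE 0.14, DESeq2 adjusted p 2.28e-06). Gpr17, a receptor of committed precursors, went from 192 to 393 CPM in replicate 1 and from 8.87 to 29.4 CPM in replicate 2 (log2 difference 1.35, SE 0.19, DESeq2 adjusted p 0.000133), and Bcas1, the member of the myelin list called higher, which marks newly formed oligodendrocytes, from 649 to 1437 CPM in replicate 1 and from 41.1 to 113 CPM in replicate 2 (log2 difference 1.29, SE 0.18, DESeq2 adjusted p 1.17e-07). The sialidase Neu4 and the matrix protein Matn4 were at low levels but also called by DESeq2, with differences of 2.75 (SE 0.30) and 1.56 (SE 0.29). The precursor gene called lower was Olig1, a transcription factor related to Olig2, from 1691 to 745 CPM in replicate 1 and from 112 to 72.6 CPM in replicate 2 (log2 difference -0.90, SE 0.21, DESeq2 adjusted p 0.00997). In no list, the perineuronal and precursor matrix genes Bcan and Tnr and the plexin Plxnb3 were called higher by DESeq2. Bcan, brevican, went from 511 to 1495 CPM in replicate 1 and from 91.8 to 247 CPM in replicate 2, Tnr, tenascin R, from 100.3 to 337 CPM in replicate 1 and from 13.2 to 33.4 CPM in replicate 2, and Plxnb3 from 401 to 850.2 CPM in replicate 1 and from 28.7 to 57.3 CPM in replicate 2. For Sox10, Gpr17, Bcas1, Matn4, Bcan, Tnr and Plxnb3 the library without vitamin C in replicate 1 was above the library with vitamin C in replicate 2. For Mag, Mbp and Olig1 the library with vitamin C in replicate 1 was above the library without it in replicate 2. In these genes the groups overlap across replicates, and the differences are seen inside pairs.

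Collagens and fibroblast genes were lower in part. Of 20 collagen and laminin chains tested, 4 were at least 1.5-fold lower in both pairs (1.25%) and 2 higher (3.03%), and DESeq2 called 4 lower (0.240%). The medians of the list had opposite signs in the pairs, -0.03 (0.34 for pair 1, -0.47 for pair 2). Col5a3, a chain of type V collagen, went from 149 to 43.7 CPM in replicate 1 and from 125 to 49.7 CPM in replicate 2 (log2 difference -1.54, SE 0.16, limma adjusted p 0.0558, DESeq2 adjusted p 4.06e-07) and was similar in both replicates. Col18a1 went from 11.9 to 2.20 CPM in replicate 1 and from 809 to 358 CPM in replicate 2, Col1a1 from 115 to 49.9 CPM in replicate 1 and from 2969 to 1759 CPM in replicate 2 and Col4a1 from 137 to 78.1 CPM in replicate 1 and from 1633 to 863 CPM in replicate 2, each called by DESeq2. These 3 had most of their RNA in replicate 2. Fibroblast and meningeal genes were lower beside them, 11 of 19 lower in both pairs (26.4%) and 0 higher (30.0%), with a median of -0.50 (-0.45 for pair 1, -0.45 for pair 2), -0.31 without the first library lacking vitamin C, and the summed levels given above; their part in the collagen values was not tested. Nid2, a basement membrane protein called by DESeq2 (adjusted p 0.00284), went from 54.1 to 26.9 CPM in replicate 1 and from 584 to 337 CPM in replicate 2. In the list of 17 tested genes of vitamin C dependent hydroxylation outside chromatin, most but not all of which encode dioxygenases, DESeq2 called P4ha1 lower (0.240%) and no other member. The median of their differences was 0.06 while the medians of the pairs were -0.06 and -0.21.

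Signalling lists had medians under 0 for hedgehog and for the feedback genes of FGF and ERK. Of 11 hedgehog genes tested, 6 were at least 1.5-fold lower in both pairs (1.25%), 0 were higher by that much (3.03%), and 0 were called by limma (0.0770%), edgeR (0.128%) or DESeq2 (0.240%). The median was -0.74 (-0.69 for pair 1, -0.60 for pair 2), but -0.12 when the first library lacking vitamin C was left out. Ptch1, the receptor and target of the pathway, went from 138 to 85.3 CPM in replicate 1 and from 105 to 60.0 CPM in replicate 2 (log2 difference -0.74, SE 0.14). Gli1, the transcription factor whose level follows pathway activity, went from 1.63 to 0.574 CPM in replicate 1 and from 34.9 to 18.6 CPM in replicate 2, and the ligand Shh from 2.21 to 0.765 CPM in replicate 1 and from 11.1 to 4.54 CPM in replicate 2, both with few reads in replicate 1. Gli1 and Shh were chosen after their values were seen. Of 17 FGF and ERK feedback genes, 12 were lower in both pairs (26.4%) and 1 higher (30.0%), with a median of -0.47 (-0.53 for pair 1, -0.37 for pair 2). Phlda1 was called lower by DESeq2 (adjusted p 0.0226) and went from 39.3 to 16.6 CPM in replicate 1 and from 74.1 to 39.4 CPM in replicate 2, and the feedback inhibitor Spry1, also past 1.5-fold and chosen after its values were seen, from 15.6 to 7.85 CPM in replicate 1 and from 26.7 to 13.0 CPM in replicate 2. Genes of the gp130 and STAT3 pathway, which drives astrocyte genes, were higher in both pairs for 9 of 15 (30.0%) with a median of 0.24 (0.40 for pair 1, 0.23 for pair 2), and DESeq2 called none (0.676%).

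**Figure D4:**
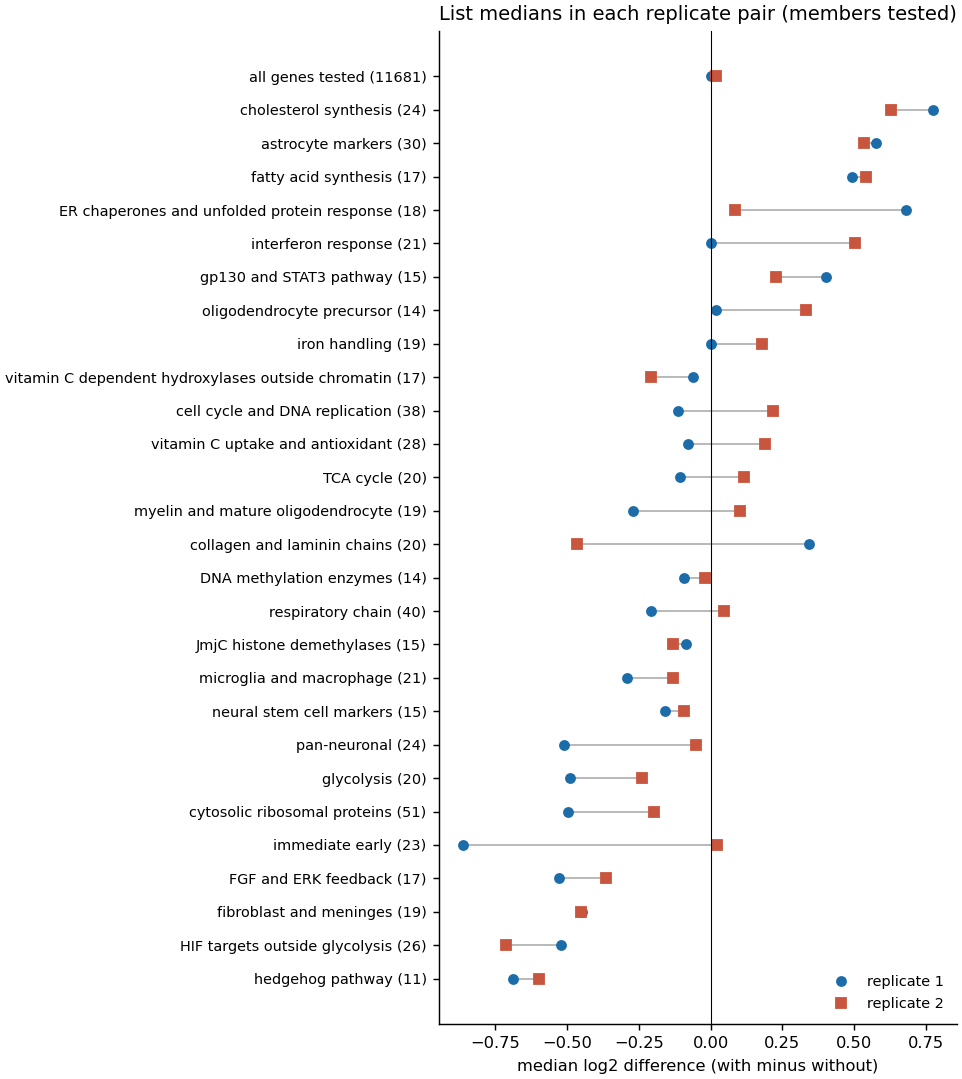
Median log2 difference (log2 of CPM + 0.5, with minus without vitamin C) of each list in replicate 1 (circles) and replicate 2 (squares), ordered by the median of the averaged differences, with the number of members tested in brackets and all genes at the top. Cholesterol synthesis, astrocyte and fatty acid synthesis lists lie to the right of 0 in both pairs, hedgehog, HIF target, fibroblast and FGF feedback lists to the left, and the immediate early and collagen lists have their 2 medians far apart.

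Some lists differed in 1 pair and not in the other. Immediate early genes, which respond within minutes to growth factors and to handling, differed by a median of -0.86 in the first pair and 0.02 in the second. Jun went from 93.0 to 32.3 CPM in replicate 1 and from 110.4 to 103 CPM in replicate 2. Chaperones of the endoplasmic reticulum differed by 0.68 in the first pair and 0.08 in the second, and the chaperone Hsp90b1 went from 381 to 646 CPM in replicate 1 and from 548 to 602 CPM in replicate 2. Interferon response genes differed by 0.00 in the first pair and 0.50 in the second, where their RNA lay. None of these 3 lists had a member past 1.5-fold in both pairs in 1 direction or called by DESeq2.

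Small shifts spread over many members were seen for ribosomal proteins. Of 51 cytosolic ribosomal protein genes, 47 were lower in both pairs (26.4%) and 0 higher (30.0%), with a median of -0.35 (-0.50 for pair 1, -0.20 for pair 2) and no member past 1.5-fold in both. Reads of these genes can be shared with processed pseudogenes, so single members are not named. The RNA quality of the libraries is not given in the sources used here.

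Other groups had few or no members past 1.5-fold in both pairs. Respiratory chain genes, 40 in all, had a median of -0.09 (-0.21 for pair 1, 0.05 for pair 2), and cell cycle and DNA replication genes, 38 in all, of 0.05 (-0.12 for pair 1, 0.22 for pair 2), with 0 members past 1.5-fold in both pairs in either list. Pan-neuronal genes were lower in both pairs for 12 of 24 (26.4%), with 2 past 1.5-fold (1.25%) and a median of -0.27 (-0.51 for pair 1, -0.05 for pair 2). The 2 were the neurofilament genes Nefl, from 7.67 to 1.82 CPM in replicate 1 and from 6.23 to 3.28 CPM in replicate 2, and Nefm, from 15.1 to 5.36 CPM in replicate 1 and from 7.68 to 3.84 CPM in replicate 2, both chosen after their values were seen. Of 15 neural stem cell markers, 1 was higher (30.0%) and 5 lower (26.4%) in both pairs, with a median of -0.16 (-0.16 for pair 1, -0.09 for pair 2). DESeq2 called 1 of them lower (0.240%) and 1 higher (0.676%). The one lower was Prom1, from 92.4 to 33.7 CPM in replicate 1 and from 152 to 91.9 CPM in replicate 2 (adjusted p 0.0363), and the one higher was Tnc. Nes, nestin, went from 81.6 to 35.3 CPM in replicate 1 and from 53.5 to 32.5 CPM in replicate 2 without a call by limma, edgeR or DESeq2, and was chosen after its values were seen.

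Enzymes through which vitamin C can act on chromatin had list medians near 0 at the RNA level. Of 14 DNA methylation and demethylation genes tested, 2 were higher (30.0%) and 4 lower (26.4%) in both pairs, with a median of -0.04 (-0.09 for pair 1, -0.02 for pair 2) and 0 past 1.5-fold in both. Dnmt1, the maintenance methyltransferase, stood at 126 and 83.2 CPM in the libraries lacking vitamin C, against 158 and 88.1 CPM in those given it, and Dnmt3a, a de novo methyltransferase, at 40.1 and 71.1 against 42.3 and 62.4 CPM. Tet1, Tet2 and Tet3 were not analysed here. Of 15 JmjC demethylases, 9 were lower (26.4%) and 1 higher (30.0%) in both pairs, with a median of -0.10 (-0.09 for pair 1, -0.13 for pair 2). Kdm3a, which is itself a HIF target, went from 111 to 96.1 CPM in replicate 1 and from 118 to 61.1 CPM in replicate 2. Slc23a2, the ascorbate transporter of neural cells, stood at 51.2 and 40.8 against 63.1 and 41.5 CPM, and 28 uptake and antioxidant genes had a median of 0.02 (-0.08 for pair 1, 0.19 for pair 2). A p that misses the threshold in this design does not show that these genes were equal.

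A few genes were called from large differences in replicate 2. Th, tyrosine hydroxylase, the rate-limiting enzyme of dopamine synthesis, went from 0.233 to 1.53 CPM in replicate 1 and from 3.38 to 64.8 CPM in replicate 2 (log2 difference 2.77, SE 0.59). Limma did not call it (adjusted p 0.221), while edgeR (adjusted p 0.0265) and DESeq2 (adjusted p 5.67e-07) did, and its replicate 1 values are 2 and 16 reads. Ptgds, a prostaglandin D synthase made by meninges and oligodendrocytes, went from 0 to 0.191 CPM in replicate 1 and from 17.0 to 128 CPM in replicate 2 (limma adjusted p 0.357, edgeR adjusted p 0.0265), from 0 and 2 reads in replicate 1, and in the fit of 6 libraries its difference was -0.90 when the second library given vitamin C was left out. RGD1306739, an uncharacterised locus called by edgeR (adjusted p 0.0230), went from 0.116 to 1.72 CPM in replicate 1 and from 6.29 to 75.3 CPM in replicate 2. These 3, with Mobp, Tmem125 and Entpd2, are the 6 genes that edgeR called and limma did not. Tf, transferrin, had the largest difference of the iron handling genes, from 12.1 to 20.6 CPM in replicate 1 and from 229 to 3387 CPM in replicate 2, and was not called. Of those 19 genes, 3 were at least 1.5-fold higher (3.03%) and 1 lower (1.25%) in both pairs, with a median of 0.09 (0.00 for pair 1, 0.18 for pair 2), and Tfrc, described with the HIF targets, was the one lower.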

How the data were processed

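RNA-seq values of 6 libraries were deposited by the authors as CPM per gene, and 4 of them enter the comparison; 18 other samples were not analysed here. Per the submitters' processing notes the tools of the series included the aligner STAR 2.5.1 and edgeR 3.12.1, with the rn5 build, and also Bowtie2 2.1.0, HOMER 4.9.1, deepTools 2.4.2 and CASAVA 1.7; which of them served the RNA-seq, the read counter, the annotation and the strand setting are not given in the sources used here. Per the labels' protocols, libraries came from a TruSeq RNA kit. In each library 100% of values were whole multiples of 1 step (relative tolerance 1e-06), so reads were recovered by division. The deposited genes held 60.2% to 63.5% of the total that the authors scaled by in the 4 libraries. A count of 0 allows up to 3 reads, 0.140 to 0.349 CPM there, for counting error only.

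The main test was limma 3.58.1 (trend, two-sided, R 4.3.3) on log2(CPM + 0.5) with group and replicate, over genes reaching 1 CPM in 2 or more libraries. The replicate number pairs libraries that share a day label, and deviations from the group means correlated across genes at 0.916 between the groups. Alternatives were DESeq2 1.42.0 and edgeR 4.0.16, both run on the recovered reads, other pseudocounts, filters and scalings, fits with no replicate block or with the stem cell libraries, and leaving out libraries. The code was tested on simulated data. RefSeq promoter windows (GRCr8) were matched by symbol or synonym for 9419 of 11681 genes (80.6%), taking the first start by coordinate where a gene had several.

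Members and gene lists were chosen with earlier results of these data known, so no list is independent evidence. Candidates for naming were drawn by rule. Per direction these were the 10 of smallest p and the 10 of largest smaller pair difference, with at least 5 CPM in the higher group. The 4 most abundant tested members of each list, all DESeq2 calls and a short panel were added. Not every candidate is named, and those left out include DESeq2 calls in no list, so the genes named are a selection. Bnip3, Dnmt3a, Egln3, Glul, Gli1, Idi1, Nefl, Nefm, Nes, Pfkp, Shh, Slc16a1, Slc2a1, Spry1 and Tfrc were named after their values were seen. Some list members are counted in the lists but are not reported here by name.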

Additional observations from a re-analysis of the deposited data

How the results depend on the processing

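The number of genes called depended on the fit. Against 9 in the main fit, limma called 27 with a pseudocount of 2, 17 with no filter on low values and 16 after quantile normalization, of which 8 were among the 9. It called 0 without the trend (1137 at an unadjusted p under 0.05). With the stem cell libraries added it called 0 with the replicate block (398 unadjusted) and 0 with no replicate block (61 unadjusted), and on the 4 libraries with no replicate block 0 (55 unadjusted). The edgeR test called 15 with the block and 0 with no replicate block (51 unadjusted), and DESeq2 107 with the block and 8 without it, 2 of them among the 9. Leaving out each of the 4 libraries in turn, in the fit of 6 libraries with the block, gave 0 calls each time (97 to 369 unadjusted); there a group with 1 library takes its spread from the other groups. The cause of these differences was not tested. Calls of single genes are thus no firmer than the pairing.

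Genes past 1.5-fold in both pairs numbered 210 higher and 84 lower with a pseudocount of 2, against 354 and 146. With 1 pair alone, leaving out either replicate, there were 1006 to 1257 higher and 419 to 1003 lower. List medians kept their sign under all alternatives for cholesterol synthesis (0.55 to 0.99), fatty acid synthesis (0.40 to 0.55), astrocyte markers (0.31 to 0.79), HIF targets (-0.71 to -0.37), glycolysis (-0.53 to -0.24), FGF and ERK feedback (-0.63 to -0.33), fibroblast genes (-0.62 to -0.31), ribosomal proteins (-0.50 to -0.20) and hedgehog genes (-0.81 to -0.12, the last when the first library lacking vitamin C was left out). They changed sign with a library left out for myelin genes (-0.61 to 0.78), precursor genes (-0.42 to 0.74), chaperones (-0.07 to 0.86), interferon response (-0.35 to 0.90), stem cell markers (-0.32 to 0.042) and pan-neuronal genes (-0.59 to 0.13). With a library or a pair left out, sign changes were also seen for immediate early (-0.88 to 0.023), collagen and laminin (-0.47 to 0.34), microglial (-0.42 to 0.15) and cell cycle genes (-0.12 to 0.22). The TCA cycle, respiratory chain, iron handling, hydroxylase and antioxidant lists changed sign too. Among named genes the sign changed with a library left out for Dnmt3a (-0.32 to 0.21), Hif1a (-0.14 to 0.061), Epas1 (-0.20 to 0.90), Olig2 (-1.01 to 0.21), Pdgfra (-1.16 to 0.48), Slc23a2 (-0.14 to 0.47), Ptgds (-0.90 to 4.24) and Tfrc (-1.67 to 0.000502). Genes such as Th, Ptgds, Gli1 and Shh rest on few reads in replicate 1. That replicate had fewer reads in all, and the CPM of these genes was also lower there than in replicate 2.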

Other observations

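Of the 107 genes called by paired DESeq2, 58 were in none of the lists. Some of them are given here as single genes, with no test of any group they may belong to. Ampd3, an AMP deaminase, went from 30.7 to 80.0 CPM in replicate 1 and from 16.3 to 45.7 CPM in replicate 2 (log2 difference 1.41, SE 0.15, adjusted p 6.41e-05). Cbs, the cystathionine beta-synthase that starts transsulfuration of homocysteine, went from 3.49 to 12.2 CPM in replicate 1 and from 4.67 to 29.6 CPM in replicate 2 (log2 difference 2.10, SE 0.30, adjusted p 0.000787). Isyna1, the inositol phosphate synthase, went from 8.14 to 22.2 CPM in replicate 1 and from 40.4 to 87.1 CPM in replicate 2 (log2 difference 1.25, SE 0.17, adjusted p 0.00527). For Cbs both libraries with vitamin C were above both libraries lacking it, while for Isyna1 the groups overlapped across replicates. Slc12a4, a potassium and chloride cotransporter, went from 109 to 225 CPM in replicate 1 and from 129 to 292 CPM in replicate 2 (log2 difference 1.11, SE 0.15, adjusted p 2.12e-05), and its 4 libraries separated by group. Slc5a6, a transporter of biotin and pantothenate, went from 35.6 to 68.9 CPM in replicate 1 and from 25.7 to 49.5 CPM in replicate 2 (log2 difference 0.94, SE 0.15, adjusted p 0.0457).

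Cav2, caveolin 2, went from 3.72 to 15.4 CPM in replicate 1 and from 20.8 to 57.5 CPM in replicate 2 (log2 difference 1.68, SE 0.22, adjusted p 0.000905), and P2rx7, an ATP-gated channel, from 8.25 to 22.6 CPM in replicate 1 and from 1.29 to 24.0 CPM in replicate 2 (log2 difference 2.59, SE 0.53, adjusted p 0.00850), with the larger difference in replicate 2. Cd9, a tetraspanin, went from 35.7 to 88.3 CPM in replicate 1 and from 267 to 452 CPM in replicate 2 (log2 difference 1.03, SE 0.18, adjusted p 0.00527). Igsf1, an immunoglobulin superfamily protein, went from 9.30 to 55.3 CPM in replicate 1 and from 30.0 to 94.3 CPM in replicate 2 (log2 difference 2.07, SE 0.23, adjusted p 9.12e-07), again with all vitamin C libraries above the others. Lower were Efnb3, ephrin B3, from 239 to 78.7 CPM in replicate 1 and from 642 to 359.8 CPM in replicate 2 (log2 difference -1.22, SE 0.22, adjusted p 0.000781), the insulin-like growth factor binding protein Igfbp2, from 222 to 123 CPM in replicate 1 and from 489 to 293 CPM in replicate 2 (log2 difference -0.79, SE 0.17, adjusted p 0.00677), and Sulf1, a heparan sulfate editing enzyme, from 58.7 to 36.5 CPM in replicate 1 and from 446 to 255 CPM in replicate 2 (log2 difference -0.74, SE 0.14, adjusted p 0.0303). The long noncoding RNA Miat had the smallest limma difference of the DESeq2 calls, log2 difference -0.71, SE 0.38, and went from 6808 to 3966 CPM in replicate 1 and from 604 to 385 CPM in replicate 2. The p-values here are from DESeq2 with the replicate block, and limma did not call any of these genes.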
